A study of Mus musculus with 14 samples.

Results

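Whole hypothalamus was compared between mice given 3 days of high-fat feeding (HFD) and mice kept on a control diet (NCD), using the input libraries of the study, which hold RNA of the lysate before any precipitation. They were the 7 input libraries among 14 libraries in all, 4 on HFD and 3 on NCD, chosen by fraction and not by any measured value. All animals were 10-week-old male mice of the C57BL/6N strain with no allele or further treatment named, killed by cervical dislocation, and the composition of the diets is not given in the sources used here. For each library 8 hypothalami were pooled. The labels plan 4 pools per condition, and 3 of those on NCD entered the comparison. The other 7 libraries are the matching precipitates made with an antibody against phosphorylated S6, a component of ribosomes that carries phosphate in active cells (IP, 4 on HFD and 3 on NCD).

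The hypothalamus senses hormones and nutrients and sets feeding and energy use. In its arcuate nucleus, neurons that make AgRP and NPY drive feeding, while neurons that make POMC and CART restrain it. Further peptides act from other nuclei, such as melanin-concentrating hormone and hypocretin from the lateral hypothalamus. Diets rich in fat have been studied there for their effects on these circuits, on protein folding in the endoplasmic reticulum (ER) and on glia.

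Values are FPKM, in which fragment numbers are divided by transcript length and library size, and the number of reads behind them is unknown. Changes are on the log2(FPKM + 1) scale as HFD minus NCD, with the standard error after ±. On this scale 1 is a doubling for abundant genes, and changes of genes near 1 FPKM or below are understated. The input libraries resembled each other across genes, with correlations of 0.970 to 0.981 within HFD, 0.971 to 0.979 within NCD and 0.967 to 0.981 between the diets. Genes are not independent replicates in these values. In a principal component analysis the HFD library of index 0 stood apart on the first component and the NCD library of index 1 on the second, which hold 22.6% and 20.1% of the variance. On the third, which holds 17.3%, the HFD libraries scored from 4.42 to 15.1 and the NCD libraries from -19.9 to -6.24, without overlap. Mitochondrially encoded genes took 39.1%, 27.9%, 29.8% and 28.5% of summed FPKM in the HFD libraries of index 0 to 3, against 30.8%, 27.3% and 23.5% in the NCD libraries of index 0 to 2. The hypothalamic transcription factors Nkx2-1 (0.445 to 1.95 FPKM on HFD and 1.299 to 1.76 on NCD) and Otp (2.12 to 3.89 on HFD and 2.91 to 3.45 on NCD) were detected in every library. So was Tcf7l2, which is abundant in the neighbouring thalamus, at 172 ± 14.7 FPKM on HFD and 174 ± 2.34 on NCD (SD, n = 4 and 3).

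After 3 days of high-fat feeding no gene passed the test for a change in whole hypothalamus. Of 12484 genes tested with limma, 0 (0%) had a Benjamini-Hochberg adjusted p under 0.05, and the smallest adjusted p was 0.426. At an unadjusted p under 0.05 there were 714 genes (5.72%), of which 386 had higher values on HFD (3.09%) and 328 had lower values (2.63%). The 4 HFD libraries lay wholly above the 3 NCD libraries in 380 genes (3.04%) and wholly below them in 469 (3.76%). A number that happens to equal the last, 469 genes, met both an unadjusted p under 0.05 and the lack of overlap in either direction. With libraries rescaled to their FPKM without mitochondrially encoded genes, the unadjusted counts were 496 higher and 179 lower, and the counts without overlap were 497 above and 324 below. Over all tested genes the median log2 change was -0.01, and 47.6% of the changes were above 0. With any 1 library left out, the number of genes without overlap lay between 1324 and 1895, as fewer libraries separate more easily.

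The precision of the libraries sets how large an unseen change could be. The median half-width of the 95% interval of a change was 0.33 on the log2 scale. For 11975 genes (95.9%) the interval lay within 1 of 0 in either direction on the log2(FPKM + 1) scale. That bound is a 2-fold change of FPKM only for abundant genes and is wider for rare ones. Of the tested genes, 627 had a mean input under 1 FPKM and 4629 had one of 1 to 5 FPKM. Intervals were widest for rare messages, with a median half-width of 0.45 under 1 FPKM and 0.21 above 100 FPKM. Fitted changes beyond 1 on that scale were seen in 20 genes, 10 in each direction, of which 8 had a mean under 5 FPKM. None of them passed.

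**Figure D1:**
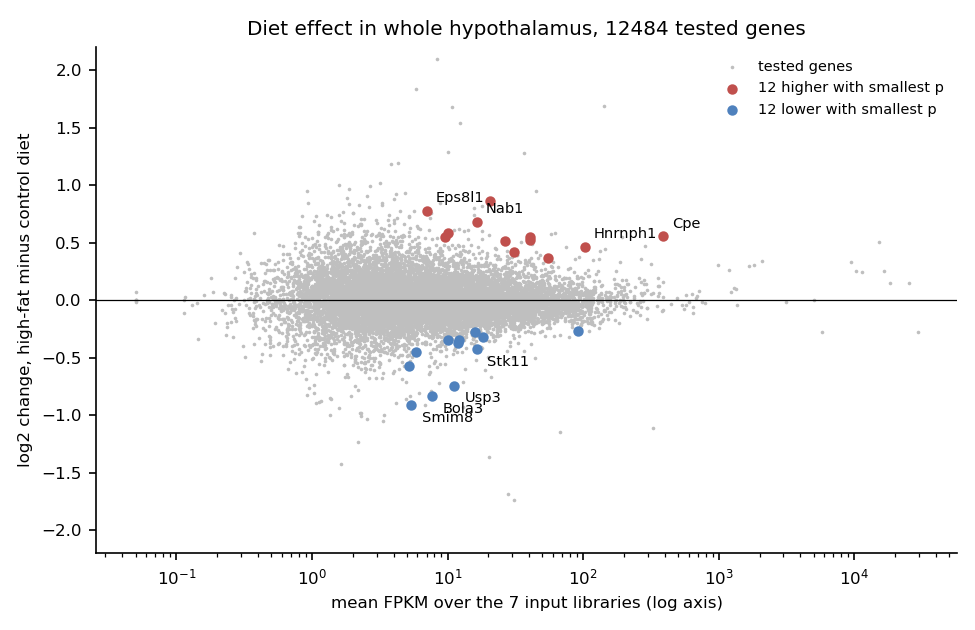
Log2 change in whole hypothalamus (vertical, HFD minus NCD, on log2(FPKM + 1)) against mean FPKM over the 7 input libraries (horizontal, log axis) for 12484 tested genes in grey, with the 12 higher (red) and 12 lower (blue) genes of smallest p among those with at least 5 FPKM and no overlap. Changes spread more widely among rare genes, and the coloured genes lie at the rim of the cloud without passing the test.

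The appetite peptides of the arcuate nucleus differed little, with Agrp as the exception. Agrp, which encodes the agouti-related peptide that stimulates feeding, was at 0, 0.949, 0.684 and 0.595 FPKM on HFD and at 1.44, 1.51 and 2.02 FPKM on NCD. Every HFD value was below every NCD value, all of them low. The log2 change was -0.81 ± 0.23, with an unadjusted p of 0.00641 and an adjusted p of 0.845 (limma), so it did not pass. With a pseudocount of 0.1 it was -1.83 and with 5 it was -0.26. Agrp lies on the reverse strand of chromosome 8 at 105566698 to 105637393 (GRCm38), and it shares exonic bases with Ctcf, which runs the opposite way, and with a gene model on its own strand. Strand was not marked in these libraries. Ctcf, a chromatin-binding factor present in most cells, was also lower in every HFD library, at 19.0 ± 2.07 FPKM on HFD and 23.3 ± 1.33 on NCD (SD, n = 4 and 3, log2 change -0.28 ± 0.10, adjusted p 0.845 in limma). Its part in the value of Agrp was not tested. In a pool of whole tissue, fewer cells of a type and less RNA per cell cannot be told apart.

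Npy is made by the same neurons as Agrp. It was at 5.48, 4.35, 2.02 and 5.29 FPKM on HFD and at 3.62, 3.57 and 2.34 FPKM on NCD, with overlapping groups and a log2 change of 0.29 ± 0.27. Pomc, the precursor of the melanocortin peptides that restrain feeding, was at 0.484, 2.002, 1.12 and 1.09 FPKM on HFD and at 1.34, 1.27 and 1.15 FPKM on NCD. The HFD values spread around the NCD values, and the change was -0.09 ± 0.22. Cartpt, which encodes the CART peptide, lay between 8.31 and 13.7 FPKM on HFD and between 8.02 and 11.04 on NCD (0.14 ± 0.18). For these 3 genes the 95% intervals ran from -0.31 to 0.89, from -0.59 to 0.41 and from -0.26 to 0.54. Changes within those bounds were not excluded with 7 pools.

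Among peptides of other nuclei, Pmch, the precursor of melanin-concentrating hormone, was at 77.1, 98.3, 113 and 119 FPKM on HFD and at 87.9, 76.7 and 98.3 FPKM on NCD (0.20 ± 0.15). Hcrt, the precursor of the wake-promoting hypocretins, lay between 3.07 and 7.35 FPKM on HFD and between 3.40 and 5.87 on NCD (0.16 ± 0.25). Both pairs of groups overlapped. Somatostatin (Sst, 0.03 ± 0.13), galanin (Gal, -0.12 ± 0.26), thyrotropin-releasing hormone (Trh, -0.06 ± 0.17), corticotropin-releasing hormone (Crh, -0.11 ± 0.15) and prepronociceptin (Pnoc, -0.01 ± 0.16) all had changes smaller than their standard error. Avp, the precursor of vasopressin, was at 0.628, 1.59, 3.69 and 6.43 FPKM on HFD and at 0.941, 5.05 and 4.14 FPKM on NCD. The pools thus varied 10.3-fold within the comparison, more than the diets differed (-0.17 ± 0.54). Oxt is not analysed here.

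The list of feeding neuropeptides held 29 tested genes of 39 listed. At an unadjusted p under 0.05, 1 had higher and 2 had lower values, beside 3.09% and 2.63% of all genes. The median change was 0.00, beside -0.01 over all genes. Of the 29, 0 lay wholly above and 2 wholly below NCD, beside 3.04% and 3.76% of all genes. The 2 below were Agrp and Nucb2, the precursor of nesfatin-1, a peptide reported to restrain feeding. Nucb2 was at 10.0, 11.3, 11.4 and 10.7 FPKM on HFD and at 13.5, 12.04 and 13.3 FPKM on NCD, a small difference of -0.23 ± 0.09 (p 0.0319, adjusted p 0.845 in limma). Nts, the precursor of neurotensin, was at 1.58, 2.60, 2.72 and 2.70 FPKM on HFD and at 1.55, 1.67 and 1.34 FPKM on NCD (0.42 ± 0.17, adjusted p 0.845 in limma). Its groups overlapped through the HFD library of index 0. Cck, the precursor of cholecystokinin and the most abundant peptide message shown, was at 323, 376, 369 and 432 FPKM on HFD and at 327, 323 and 327 FPKM on NCD (0.20 ± 0.10).

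**Figure D2:**
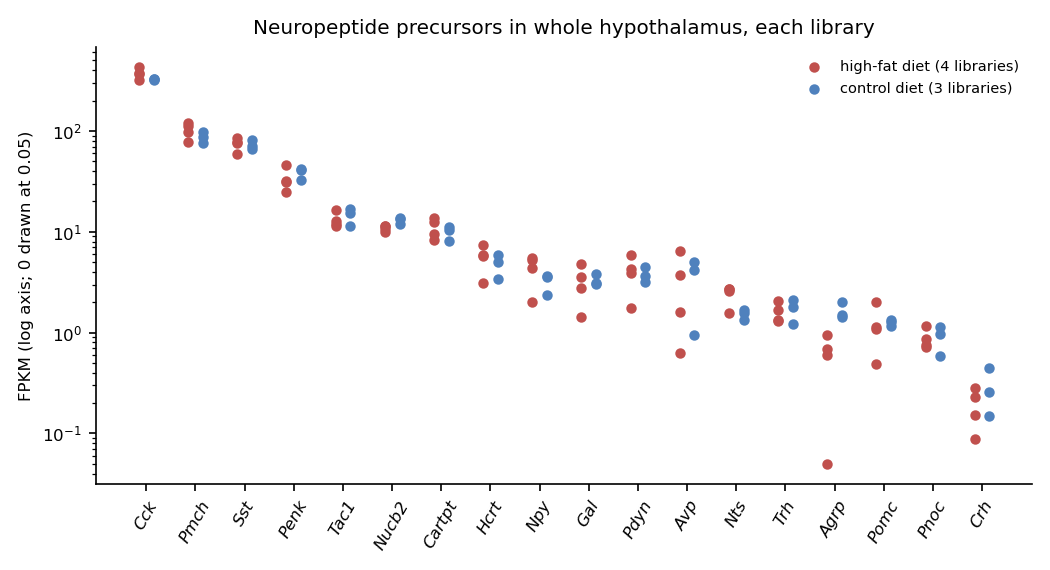
FPKM of 18 neuropeptide precursors (vertical, log axis, 0 drawn at 0.05) in each input library, with the 4 HFD libraries in red to the left of the 3 NCD libraries in blue. The groups overlap for all genes shown but Agrp and Nucb2, whose HFD points lie below the NCD points, and Avp spreads over 10.3-fold.

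Receptors for metabolic and feeding signals were as flat, with 32 of 45 listed genes tested and a median change of -0.01. Of these, 1 had a higher value at an unadjusted p under 0.05 (3.12%, beside 3.09% of all genes). In addition, 2 lay wholly above (6.25%) and 1 wholly below NCD, beside 3.04% and 3.76% of all genes. Ramp3, a subunit that lets the calcitonin receptor family bind amylin and adrenomedullin, was at 4.67, 5.17, 5.41 and 5.65 FPKM on HFD and at 4.26, 2.90 and 4.22 FPKM on NCD (0.39 ± 0.14, adjusted p 0.845 in limma). It is also on the list of thalamus markers, where it was the 1 member of 17 without overlap. Tacr3, the receptor of neurokinin B, was slightly higher in each HFD library (0.30 ± 0.14), and the G protein-coupled receptor Gpr83 was lower in each (-0.40 ± 0.19). Lepr, the leptin receptor, was at 0.678, 0.831, 0.699 and 0.520 FPKM on HFD and at 0.625, 2.41 and 0.984 FPKM on NCD. The NCD library of index 1 was the high one, and the change of -0.41 ± 0.24 lay within a 95% interval from -0.95 to 0.13.

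Of the 12 higher genes with the smallest p, Cpe was the most abundant. It encodes carboxypeptidase E, which trims basic residues from peptide precursors on the way to mature hormones. It was at 470.5, 385, 487 and 469.8 FPKM on HFD and at 322, 283 and 315 FPKM on NCD. All HFD pools were above all NCD pools, with the HFD library of index 1 nearest to them. The log2 change was 0.56 ± 0.10 (p 0.000336, adjusted p 0.838 in limma). The gene lies on chromosome 8 at 64592542 to 64693054 (GRCm38). Nab1, a repressor that binds the immediate early EGR factors, had the smallest p among higher genes, at 20.8, 18.2, 20.7 and 19.6 FPKM on HFD and 11.1, 11.3 and 13.7 FPKM on NCD. Its change was 0.68 ± 0.10 (adjusted p 0.426 in limma). Bola3, which helps to place iron-sulfur clusters in mitochondrial proteins, had the smallest p among lower genes, at 6.03, 4.69, 5.30 and 5.90 FPKM on HFD and 11.6, 10.2 and 9.88 FPKM on NCD. Its HFD values were about 0.56 times the NCD values on the FPKM + 1 scale (-0.84 ± 0.12, adjusted p 0.426 in limma).

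Hnrnph1, a splicing regulator, was at 105, 119, 117 and 127 FPKM on HFD and at 79.3, 84.9 and 88.6 FPKM on NCD (0.46 ± 0.08). Rbm17, a splicing factor (0.54 ± 0.13), and Lsm14a, a component of RNA granules (0.52 ± 0.12), were higher by similar amounts. Eif6, which keeps the large ribosomal subunit free until it is needed, differed by 0.58 ± 0.13, and Rpl15, a protein of that subunit, by 0.87 ± 0.20. The exons of Rpl15 overlap those of Nkiras1 on the other strand, and ribosomal protein genes share sequence with pseudogenes. Sv2b, a synaptic vesicle protein, was at 58.0, 59.4, 58.8 and 67.2 FPKM on HFD and at 42.2, 48.5 and 50.1 FPKM on NCD (0.37 ± 0.09). The remaining higher genes were Eps8l1, a relative of an actin regulator (0.78 ± 0.14), the septin Sept2 (0.42 ± 0.10), the nucleosome-binding Hmgn3 (0.55 ± 0.13) and Luzp1 (0.51 ± 0.12).

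After Bola3, the lower gene with the smallest p was Usp3. Usp3, a deubiquitinating enzyme of histones, was at 10.7, 7.81, 7.83 and 7.65 FPKM on HFD and at 12.8, 13.8 and 18.0 FPKM on NCD (-0.74 ± 0.15). The other HFD values lay close together, while that of index 0 lay nearer to NCD. Stk11, the kinase LKB1 that activates AMPK, was at 13.3, 12.5, 15.3 and 15.6 FPKM on HFD and at 21.7, 18.2 and 18.3 FPKM on NCD (-0.43 ± 0.11). Its exons overlap those of Cbarp on the other strand. Sgip1, an endocytic protein of neurons that was linked to energy balance in rodents, was at 77.4, 87.9, 83.3 and 86.8 FPKM on HFD and at 101, 99.6 and 102 FPKM on NCD, a close-set difference of -0.27 ± 0.07. Smim8 (-0.91 ± 0.19), Zfp974 (-0.57 ± 0.16), Pex7, an import receptor of peroxisomes (-0.45 ± 0.13), Parp8 (-0.37 ± 0.10), Gne, the first enzyme of sialic acid synthesis (-0.35 ± 0.10), Ammecr1l (-0.35 ± 0.10), Usp53 (-0.32 ± 0.09) and the cadherin Cdh18 (-0.28 ± 0.08) completed the set. Apart from Nab1 and Bola3, the adjusted p of these 24 genes was 0.838 to 0.845 in limma. They were picked as the smallest p values without overlap, so their separation is a description and not evidence of an effect.

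**Figure D3:**
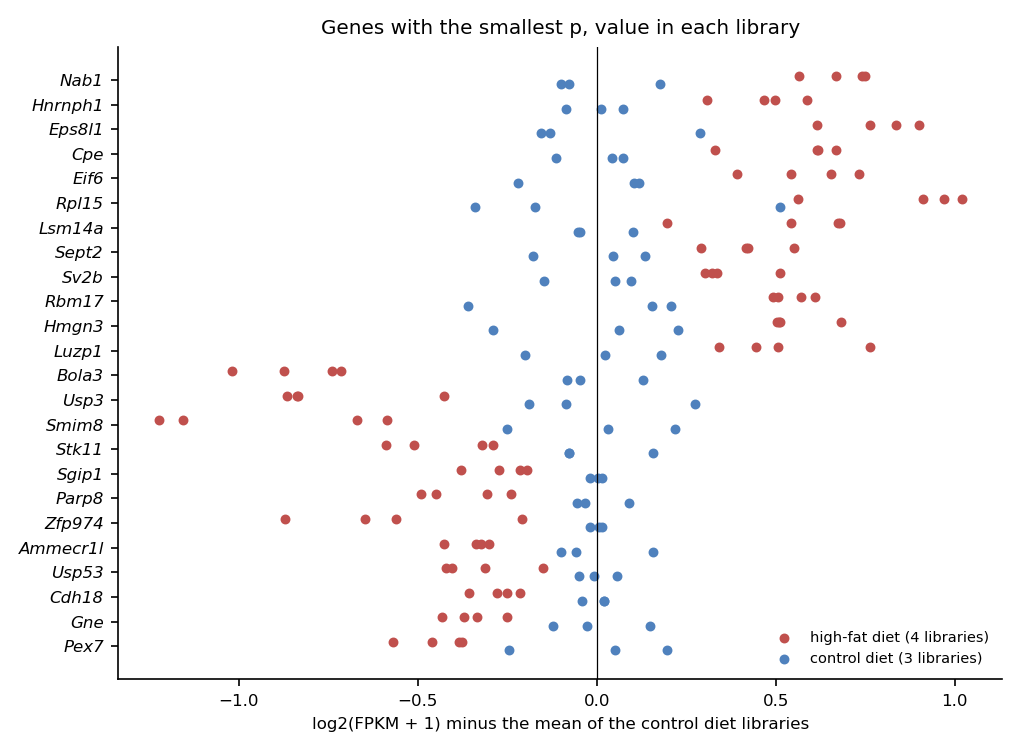
Each input library's log2(FPKM + 1) minus the mean of the NCD libraries (horizontal) for the 12 higher and 12 lower genes of smallest p (rows), with 4 HFD libraries in red above 3 NCD libraries in blue within each row. The 2 diets separate in every row because the genes were picked without overlap; Nab1 and Bola3 have the smallest p of their directions.

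Several chaperones of the ER stress response had slightly higher values on HFD, without passing the test. When unfolded proteins build up in the ER, cells raise chaperones such as BiP (Hspa5), in part through the transcription factors ATF6, XBP1 and ATF4. ATF6 and its partner NF-Y are known to act through the ER stress response element, CCAAT followed by 9 bases and CCACG. The promoters of Hspa5 and Calr are shown because both genes were higher in every HFD library, and that of Hsp90b1 because it was not, although it holds the element in 2 places. The sequences run 5′ to 3′ on the strand of the gene from 250 bases before to 50 after its start (RefSeq, GRCm38.p6), with the element in capitals. On the opposite strand it reads CGTGG, 9 bases, ATTGG.
Hspa5 promoter, chr2:34771840-34772139, forward strand: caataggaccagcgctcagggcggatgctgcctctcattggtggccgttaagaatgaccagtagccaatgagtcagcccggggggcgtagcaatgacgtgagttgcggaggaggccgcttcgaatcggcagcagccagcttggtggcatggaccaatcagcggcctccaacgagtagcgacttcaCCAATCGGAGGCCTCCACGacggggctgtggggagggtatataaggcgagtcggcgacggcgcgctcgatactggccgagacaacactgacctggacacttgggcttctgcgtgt
Calr promoter, chr8:84846882-84847181, reverse strand: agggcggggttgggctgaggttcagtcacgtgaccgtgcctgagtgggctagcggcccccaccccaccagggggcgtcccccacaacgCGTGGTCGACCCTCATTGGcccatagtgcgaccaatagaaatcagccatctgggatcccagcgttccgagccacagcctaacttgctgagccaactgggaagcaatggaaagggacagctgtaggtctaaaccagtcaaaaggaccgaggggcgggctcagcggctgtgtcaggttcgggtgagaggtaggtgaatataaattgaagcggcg
Hsp90b1 promoter, chr10:86705395-86705694, reverse strand: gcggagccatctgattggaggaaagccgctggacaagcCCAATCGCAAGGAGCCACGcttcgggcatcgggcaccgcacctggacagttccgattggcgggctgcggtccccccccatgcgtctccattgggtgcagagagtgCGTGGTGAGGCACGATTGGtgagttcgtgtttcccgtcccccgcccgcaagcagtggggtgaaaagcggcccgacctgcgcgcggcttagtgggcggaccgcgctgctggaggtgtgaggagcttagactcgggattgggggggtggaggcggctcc

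Calr, which encodes the calcium-binding chaperone calreticulin, was at 61.2, 50.6, 50.1 and 40.3 FPKM on HFD and at 35.9, 39.6 and 36.1 FPKM on NCD. The lowest HFD pool lay just above the highest NCD pool, and the change was 0.42 ± 0.13 (p 0.00846, adjusted p 0.845 in limma). Hspa5 was at 45.0, 43.3, 50.2 and 45.7 FPKM on HFD and at 35.9, 41.3 and 40.8 FPKM on NCD (0.22 ± 0.08, adjusted p 0.845 in limma). Atf4, a transcription factor of the amino acid and ER stress response, was at 16.6, 18.5, 18.8 and 16.6 FPKM on HFD and at 15.4, 15.4 and 14.3 FPKM on NCD (0.21 ± 0.09). Its groups were close but did not overlap, nor did those of the ER chaperone Hyou1 (0.26 ± 0.11). Sdf2l1, another ER chaperone subunit, was at 4.03, 4.25, 3.87 and 3.67 FPKM on HFD and at 1.68, 3.83 and 2.35 FPKM on NCD (0.50 ± 0.19), with overlap through 1 NCD pool. By contrast, Hsp90b1, the abundant ER chaperone GRP94, was at 164, 134, 152 and 146 FPKM on HFD and at 161, 145 and 136 FPKM on NCD (0.02 ± 0.09).

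Of 26 ER stress genes tested of 29 listed, 5 had higher values at an unadjusted p under 0.05 and 0 had lower values, and 4 lay wholly above NCD and 0 wholly below. These are 19.2% and 15.4% of the list, beside 3.09% and 3.04% of all genes. The median change was 0.06, close to the -0.01 of all genes, and none passed the adjusted test. The median was 0.02 without the HFD library of index 0 and 0.10 without the NCD library of index 2. Ddit3, the proapoptotic factor CHOP (0.12 ± 0.17), and Xbp1 (0.22 ± 0.13) overlapped between diets. Leaving out single libraries left 2 to 4 of the members at an unadjusted p under 0.05 (2 without the HFD library of index 2, or the NCD library of index 0 or 2). In 1 fit over all 14 libraries 0 of the 26 were, beside 0.16% of all genes with higher values. Of the 26 changes, 17 were above 0 and 9 below. The element was present, on either strand, in the promoters of 7 of the 23 ER stress genes with a RefSeq promoter (30.4%), against 37 of 27025 genes (0.137%). The list is of known ER stress genes, and these shares come from sequence alone, so they do not bear on the diet. The median change was 0.05 in the 7 genes with the element and 0.04 in the 16 without it, and 2 of the 7 and 1 of the 16 lay wholly above NCD.

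Genes of lipid metabolism showed mixed and small differences. Of 21 cholesterol synthesis genes tested, 1 had a higher and 1 a lower value at an unadjusted p under 0.05, 4 lay wholly above and 1 wholly below NCD, and the median change was 0.08. The 4 above were 19.0% of the list, beside 3.04% of all genes above and 3.76% below. Msmo1, the sterol-C4 methyl oxidase, was at 18.5, 17.8, 17.3 and 20.7 FPKM on HFD and at 13.7, 14.3 and 15.9 FPKM on NCD (0.33 ± 0.09, adjusted p 0.845 in limma). Sqle (0.23 ± 0.10) and Fdft1 (0.17 ± 0.09), which catalyse other steps on the way from farnesyl pyrophosphate to cholesterol, were likewise higher in each HFD pool. The exons of Fdft1 overlap those of Ctsb on the other strand, and strand was not marked in these libraries. Pmvk, an earlier enzyme of the mevalonate pathway, was lower in each HFD pool (-0.23 ± 0.08). None of 18 fatty acid synthesis genes reached an unadjusted p of 0.05 in limma, and the elongase Elovl5 was the 1 member wholly above NCD (0.21 ± 0.09). No member of the 19 fatty acid oxidation genes or of the 16 genes of lipid uptake reached an unadjusted p of 0.05 or separated the diets, and their medians were -0.01 and -0.03.

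Genes of inflammation and glial reactivity had no member with a higher value at an unadjusted p under 0.05 in limma. Of 13 inflammation genes tested of 27 listed, 0 had higher and 1 had lower values at an unadjusted p under 0.05, beside 3.09% and 2.63% of all genes. Wholly below NCD lay 2 of them, beside 3.76% of all genes. Those 2 encode subunits of the IκB kinase that activates NF-κB. Chuk was at 22.8, 21.9, 19.7 and 23.8 FPKM on HFD and at 24.8, 31.8 and 26.0 FPKM on NCD (-0.30 ± 0.11, adjusted p 0.845 in limma). Ikbkg was at 5.82, 5.75, 5.27 and 5.75 FPKM on HFD and at 6.36, 6.54 and 6.76 FPKM on NCD (-0.19 ± 0.10). None of 7 reactive gliosis genes reached an unadjusted p of 0.05, with Gfap, the intermediate filament of astrocytes, at 6.18, 6.79, 6.59 and 7.10 FPKM on HFD and at 7.33, 4.56 and 6.97 FPKM on NCD (0.09 ± 0.15, 95% interval from -0.25 to 0.44). None of 9 interferon genes did either, and the median of that list was -0.10.

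Markers of astrocytes and microglia had medians above 0. Of 18 astrocyte markers, 2 had higher values at an unadjusted p under 0.05 and 2 lay wholly above NCD, with a median of 0.13. Both counts are 11.1% of the list, beside 3.09% and 3.04% of all genes. Gja1, the gap junction protein connexin 43, was at 28.9, 23.8, 25.9 and 26.6 FPKM on HFD and at 22.6, 23.5 and 20.7 FPKM on NCD (0.23 ± 0.09). Of 17 microglia and macrophage markers, 3 had higher values at an unadjusted p under 0.05 (17.6%, beside 3.09% of all genes), among them C1qc (0.37 ± 0.16) and Gpr34 (0.46 ± 0.20). Only 1 of the 17 lay wholly above NCD (5.88%, beside 3.04% of all genes), and 0 did with quantile normalization. Aif1 had a change of -0.50 ± 0.26 with 1 high NCD pool, at 4.38 FPKM. Without the HFD library of index 0, 0 of the astrocyte and 0 of the microglia markers reached an unadjusted p of 0.05, and the medians were 0.10 and 0.06. The astrocyte count was also 0 without the HFD library of index 2 and without the NCD library of index 2. Mature oligodendrocyte markers (18 genes, median -0.03), oligodendrocyte precursor markers (14 genes, 0.00) and tanycyte markers (15 genes, -0.01) lay near 0. Among smaller lists, 4 ependymal markers had a median of 0.00, 2 mural cell markers of 0.17, 11 meningeal markers of 0.19 and 2 pituitary markers of -0.12. Without the NCD library of index 2 the mural median was 0.07 and the meningeal one -0.04, and both were 0.08 without the HFD library of index 0. The medians of 13 heat shock proteins and 8 nuclear long non-coding RNAs were 0.08 and -0.02, with 11 and 4 of the changes above 0.

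Markers of choroid plexus, vessels and blood also had positive medians, and they varied between pools. Ttr, the transthyretin that choroid plexus secretes, was at 98.1, 15.6, 89.6 and 105 FPKM on HFD and at 48.9, 42.3 and 33.2 FPKM on NCD. The HFD library of index 1 was the lowest of all and the other 3 HFD libraries were the highest. Calml4 was at 1.24, 0.611, 2.47 and 1.33 FPKM on HFD and at 0.183, 0.242 and 0.478 FPKM on NCD (0.84 ± 0.24, 1.84 with a pseudocount of 0.1 and 0.27 with 5), and Otx2, a homeobox factor of choroid plexus, was higher in each HFD pool by less (0.47 ± 0.14). In all, 2 of 12 tested choroid markers of 14 listed had higher values at an unadjusted p under 0.05 (16.7%, beside 3.09% of all genes), with a median of 0.28. Without the HFD library of index 1, in which Ttr was lowest, this was 7 of 12, beside 2.84% of all genes, with a median of 0.46. Leaving out any other single library gave 2 or 3 of 12, with medians of 0.18 to 0.26. Of the 12 markers, 7 had a mean of at least 1 FPKM over the 7 input libraries. Of these, 1, Otx2, was among the 2 markers counted with all libraries. Calml4 and the other 4 entered the test through the IP libraries. The summed FPKM of the 12 markers ran from 108 to 266 on HFD and from 134 to 181 on NCD, and Folr1, a folate receptor of choroid plexus, was listed at 0 in 2 HFD and 1 NCD libraries. The part of choroid plexus in other differences was not tested.

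All 8 tested endothelial markers of 19 listed had changes above 0, with a median of 0.24 (6 of 8, with a median of 0.16, without the HFD library of index 0, and 6 of 8, with 0.11, without the NCD library of index 2). Ly6a was at 2.79, 1.99, 2.45 and 1.90 FPKM on HFD and at 1.05, 1.38 and 1.17 FPKM on NCD (0.57 ± 0.15), the 1 of them without overlap. Their summed FPKM ran from 68.3 to 117 on HFD and from 72.4 to 88.9 on NCD, which overlapped. Hba-a1, a hemoglobin alpha chain, was at 7.42, 7.31, 4.62 and 6.16 FPKM on HFD and at 2.05, 3.17 and 3.38 FPKM on NCD (0.93 ± 0.19, adjusted p 0.845 in limma). Its near-identical copy Hba-a2 had a change of -0.28 ± 0.38, and how fragments were divided between the copies is not given in the sources used here. The 5 tested blood markers summed to 17.2 to 27.3 FPKM on HFD and 11.6 to 17.1 on NCD.

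Markers of neighbouring brain regions had small differences of both signs. Over all tested genes 47.6% of changes were above 0. Of 11 striatum markers, 10 had changes below 0 (median -0.17), and 2 lay wholly below NCD, beside 3.76% of all genes. Among the 10 was Rgs9, a regulator of G protein signals at 5.31, 8.73, 10.1 and 9.90 FPKM on HFD and 11.2, 12.9 and 10.3 on NCD (-0.42 ± 0.19). Of 8 cortex and amygdala markers, 7 had changes above 0 (median 0.19, and -0.02 without the HFD library of index 1), with 0 at an unadjusted p under 0.05. Slc17a7, a vesicular glutamate transporter on that list, was at 11.4, 13.4, 7.24 and 9.20 FPKM on HFD and at 7.06, 7.97 and 7.24 on NCD (0.39 ± 0.18). The 17 thalamus markers had a median of 0.01, and 13 tested hypothalamic transcription factors a median of -0.04. What part the dissection had in other differences was not tested.

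Neuronal activity, stress hormone and clock genes differed little. Fos, an immediate early gene, was at 1.15, 0.834, 1.51 and 0.594 FPKM on HFD and at 0.461, 1.19 and 0.790 FPKM on NCD (0.16 ± 0.21). Of 16 activity-induced genes, 1 had a higher value at an unadjusted p under 0.05 (6.25%, beside 3.09% of all genes). It was the phosphatase gene Dusp1 (0.30 ± 0.13). None of the 16 separated the diets, beside 3.04% of all genes wholly above and 3.76% wholly below. Of 15 glucocorticoid-induced genes, 1 had a lower value at that threshold, Zbtb16 (-0.33 ± 0.14), beside 2.63% of all genes. The median of that list was -0.14, or -0.04 without the HFD library of index 0. Of 19 clock genes, 15 had changes below 0 with a median of -0.08. Rora, a nuclear receptor that drives Bmal1 transcription, was the 1 member wholly below NCD, beside 3.76% of all genes. It was at 105, 94.4, 118 and 118 FPKM on HFD and 124, 123 and 122 on NCD (-0.18 ± 0.09). With libraries rescaled to their FPKM without mitochondrially encoded genes, 0 of the 19 lay wholly below. Pan-neuronal markers had a median of 0.06 over 20 genes, and genes of synaptic vesicles and transmitter identity a median of 0.06 over 18, which was -0.02 without the NCD library of index 1. Of those 18 genes, 16 had changes above 0, and 8 did without that library.

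Mitochondrially encoded genes had a median above 0 that shifted with single libraries, while nuclear mitochondrial and ribosomal genes showed small and mixed differences. All 10 mitochondrially encoded genes had changes above 0 with a median of 0.28, but the median was 0.11 without the HFD library of index 0 and 0.04 with quantile normalization. At an unadjusted p under 0.05, 2 of the 10 had higher values (20%, beside 3.09% of all genes). That count was 0 without the HFD library of index 2 or without the NCD library of index 2. Wholly above NCD lay 1 of the 10 (10%, beside 3.04% of all genes). This was 3 with scaling to the nuclear FPKM and 0 with quantile normalization. The largest difference was that of mt-Nd2, a subunit of complex I (0.51 ± 0.22). Of 74 nuclear genes of oxidative phosphorylation, 6 had higher (8.11%) and 2 had lower values at an unadjusted p under 0.05, beside 3.09% and 2.63% of all genes. Of the 74, 3 lay wholly above (4.05%) and 1 wholly below NCD, beside 3.04% and 3.76% of all genes. Cox7a2, a subunit of cytochrome c oxidase, was at 42.9, 39.2, 38.2 and 38.8 FPKM on HFD and at 34.7, 32.6 and 31.1 FPKM on NCD (0.27 ± 0.08), while Ndufs7 of complex I was lower in each HFD pool (-0.23 ± 0.09). Of 81 cytosolic ribosomal protein genes and like-named paralogs, 4 had higher (4.94%) and 2 had lower values, beside 3.09% and 2.63% of all genes. Their median change was 0.04. That median was -0.03 without the HFD library of index 0 and also without the NCD library of index 1. Rpl15 and Rpl36 stood at opposite ends of that list, with Rpl36 at 5.21, 5.53, 8.79 and 3.22 FPKM on HFD and at 10.8, 9.62 and 9.75 FPKM on NCD (-0.79 ± 0.24).

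**Figure D4:**
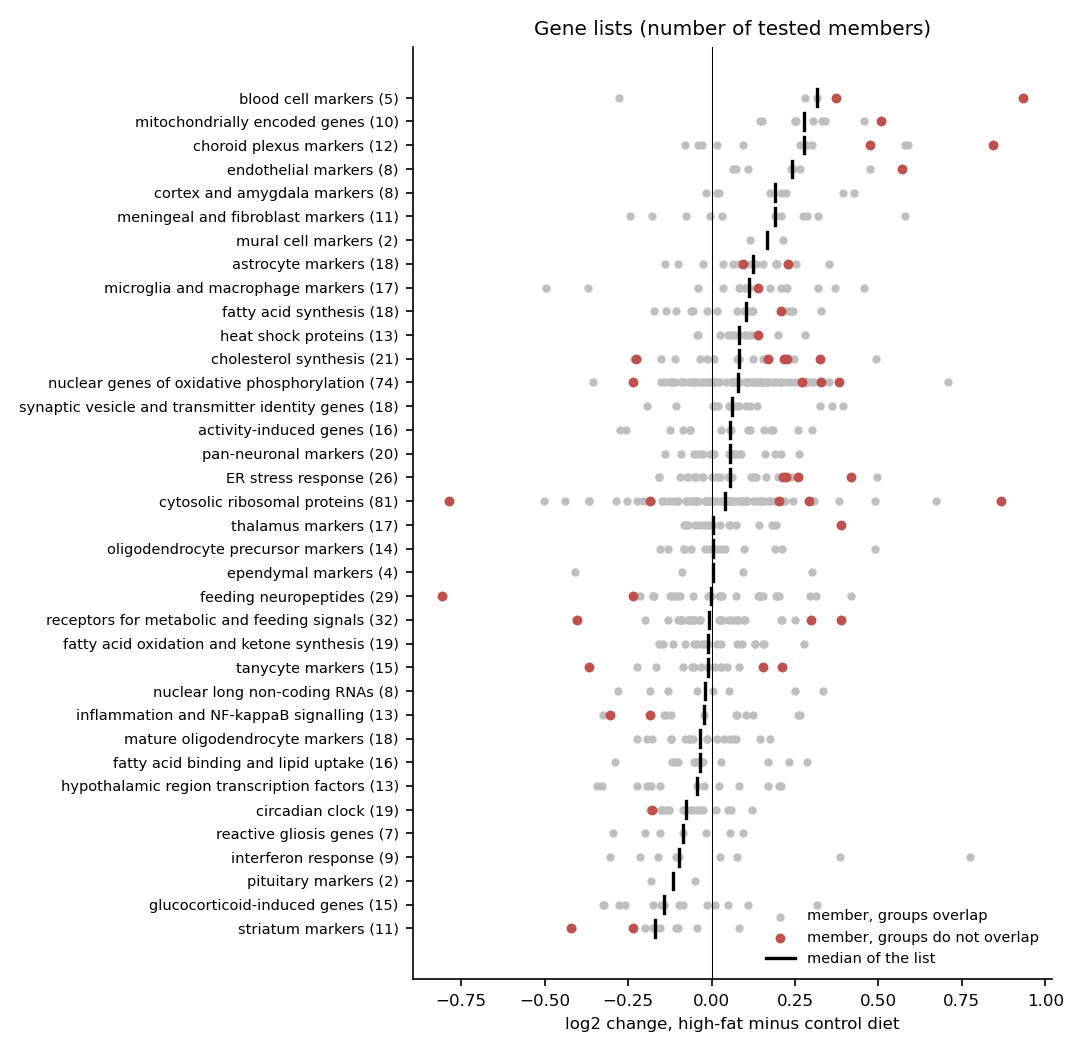
Log2 change (horizontal, HFD minus NCD) of the tested members of 36 gene lists (rows, with the number of tested members in brackets, ordered by median), with members whose groups do not overlap in red, other members in grey and the list's median as a black line. Most lists centre within 0.1 of 0, and 17 of the 36 medians changed sign when 1 library or another was left out. Blood, choroid plexus, mitochondrially encoded and endothelial genes have medians of 0.24 to 0.32, the last 2 of which were 0.11 without 1 of the libraries.

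The diet effect in input was set against that in the precipitated fraction through the difference of the effects, fitted over all 14 libraries. By limma 1 of 12484 genes (0.00801%) differed with an adjusted p under 0.05, and 845 did at an unadjusted p under 0.05 (6.77%). The gene was Gm17122, an antisense gene model of chromosome 5 whose exons overlap Coro1c, chosen here because it was the single call. In input it was at 12.9, 14.4, 7.12 and 2.02 FPKM on HFD and at 0.989, 1.71 and 1.53 FPKM on NCD, while in IP it was listed at practically 0 on HFD and at 17.8 ± 9.65 FPKM on NCD (SD, n = 3). The difference of effects, whose size depends on the pseudocount of 1, was -5.95 ± 0.70 (adjusted p 0.0053), and with array weights, which count variable libraries less, the adjusted p was 0.497 and 0 genes passed. The median standard error of a diet effect was 0.15 in input and 0.56 in IP, so the input values are the tighter ones.

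Feeding peptides can be set beside their values in IP. Pomc had a change of 2.09 ± 0.71 in IP and -0.09 ± 0.22 in input, with a difference of 2.18 ± 0.80 (adjusted p 0.657 in limma). Pnoc had a change of 1.501 ± 0.51 in IP and -0.01 ± 0.16 in input (difference 1.51 ± 0.46, adjusted p 0.587 in limma). Agrp had a change of 1.74 ± 0.97 in IP and -0.81 ± 0.23 in input (difference 2.55 ± 1.11, adjusted p 0.725 in limma). Of the genes with smallest p in input, Cpe had 0.10 ± 0.25 in IP and Nab1 0.22 ± 0.44. None of these 5 differences between the fractions passed the test. It used a common spread per gene for both fractions, although IP varied more, so the errors of the differences are approximate.

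Across genes, the diet difference fell slightly as transcript length rose. The median change was 0.03 for 1030 genes with a longest annotated transcript of up to 1000 bases and -0.06 for 782 genes above 8000 bases. Of the short genes, 3.59% lay wholly above and 2.91% wholly below NCD, and of the long ones 0.384% lay above and 6.78% below. Spearman's rho across 12474 genes was -0.161, and -0.075 without the NCD library of index 1. Without that library the short and long medians were 0.01 and -0.02, and without the HFD library of index 0 they were -0.01 and -0.07. In the NCD library of index 1 the long genes deviated by 0.10 from their mean over libraries, and in the HFD library of index 0 the short genes deviated by 0.13. The 19 clock genes had a median length of 4403 bases, against 3372 over all tested genes and 2430 in the ER stress list. The part of length in single differences was not tested.

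**Figure D5:**
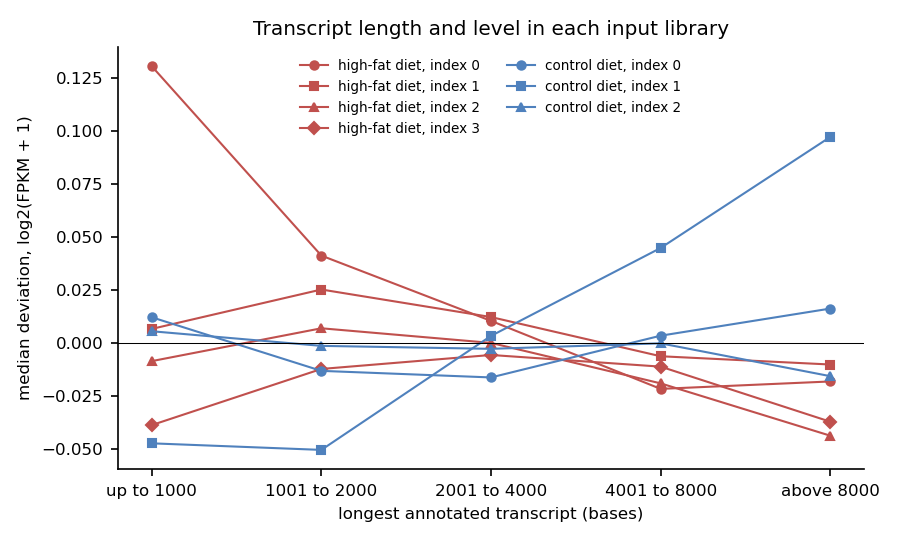
Median deviation of genes from their mean over the input libraries (vertical, on log2(FPKM + 1)) by length of the longest annotated transcript (horizontal, 5 classes in bases), with 4 HFD libraries in red and 3 NCD libraries in blue. The NCD library of index 1 climbs to 0.10 in the longest class and the HFD library of index 0 starts at 0.13 in the shortest, while the other 5 stay within 0.05 of 0.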

How the data were processed

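RNA of whole hypothalamus was amplified with poly(T) and random primers and made into libraries with a kit that does not mark strand, per the labels' protocols. The authors deposited 1 table of FPKM for 14531 entries, called normalized; how libraries were scaled to each other is not given in the sources used here, and depth is unknown. Cufflinks 2.2.1, Cuffdiff, StringTie 1.3.4d and HISAT2 2.1.0 and the build GRCm38.p6 are named by the submitters' processing notes without a role. Columns carry an index from 0 to 3, so they were assigned to groups and not to labelled replicates, and 7 further per-library columns were not used. No 2 input libraries held identical values.

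Genes with a mean of 1 FPKM or more over the 14 libraries were kept (12484). The deposited FPKM were transformed to log2(FPKM + 1) and fitted for the 7 input libraries with limma 3.58.1 in R 4.3.3 (trended variance, two-sided, Benjamini-Hochberg over all tested genes, threshold 0.05). p-values measure the spread between pools. The difference of diet effects used 4 group means over 14 libraries, treated as independent although both fractions share lysates. It assumed a common spread per gene in both fractions, although IP varied more. The procedure was tested on simulated data. Lists are described by counts and medians and have no test.

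The 36 lists, the members and the rules were chosen with earlier results of these data known. The text names the 12 genes per direction with the smallest p among those without overlap, at 5 FPKM or more and with a usual symbol, up to 4 members of smallest p per list, and 14 feeding genes. Further members (Hyou1, Hsp90b1, Xbp1, Ddit3, Ttr, Folr1, Gfap, Nkx2-1, Otp, Tcf7l2) and the overlapping Ctcf were added after their values were seen. Some genes picked by these rules are not reported here. Positions, lengths and overlaps came from GENCODE M21, and promoters from RefSeq. Alternatives were other pseudocounts, filters, scalings, weights, a fit over all libraries and leaving out each library.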

Additional observations from a re-analysis of the deposited data

Results flagged for a closer look

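Within the 4 HFD libraries, 1 library stood apart from the other 3 in 8 named genes and in the share of mitochondrially encoded FPKM. Chance gives such a gap in about 1 in 20 groups, and 171 genes were looked at. Cpe was at 385 FPKM in the library of index 1, against 469.8 to 487 in the others, and Hmgn3 was at 12.4 FPKM there, against 10.9 in the others. In the library of index 0, Usp3 was at 10.7 FPKM, against 7.65 to 7.83, Nts was at 1.58 FPKM, against 2.60 to 2.72, and mitochondrially encoded genes held 39.1% of summed FPKM, against 27.9% to 29.8%. In the library of index 3, Sv2b was at 67.2 FPKM, against 58.0 to 59.4, Acsl6 at 38.6 FPKM, against 43.8 to 44.6, and Hbb-bt at 0.823 FPKM, against 2.02 to 2.18. In the library of index 2, Ikbkg was at 5.27 FPKM, against 5.75 to 5.82.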

How the results depend on the processing

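No paired analysis was possible because the columns are numbered by an index that is not the labels' replicate number. The number of genes past the threshold was 0 under each alternative that kept all input libraries, and 0 to 1 with 1 library left out (1, Gm14303, without the HFD library of index 0). The number of genes whose groups do not overlap lay between 1324 and 1895 with 1 library left out, between 577 and 917 for higher and between 728 and 983 for lower genes, where fewer libraries separate more easily. Scaling to the nuclear FPKM moved the unadjusted split to 496 higher and 179 lower genes, and the split without overlap to 497 and 324. In 1 fit over all 14 libraries, 20 higher and 8 lower genes reached an unadjusted p of 0.05, against 386 and 328. The 24 genes of smallest p kept their sign in all 384 values. They were picked without overlap, so leaving out a library could not change their sign, and this is no evidence of an effect. Of 171 named genes, 16 changed sign at least once, all without a call. Of 36 list medians, most of them near 0, 18 changed sign under at least 1 alternative, 17 of them with 1 library left out, and 35 moved by over 1.5 times with 1 left out. In 3 the shift exceeded the median standard error of the members. The 1 gene whose diet effects differed between fractions became 0 with array weights, an alternative chosen after seeing the data. Unknown depth and 7 pools limit what rare genes can show.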
